A study of Homo sapiens with 6 samples.

Results

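The amino acid transporter genes were taken as all gene symbols in the count files that belong to 7 solute carrier families (SLC1, SLC3, SLC6, SLC7, SLC36, SLC38 and the numbered SLC43 genes), and 59 of the 24462 symbols were found this way. None of the 59 had more than 1 row in the files. The choice was by name, so it also took in SLC6 genes whose products carry taurine, creatine, betaine, GABA or monoamines or have no known substrate, 10 in all, and SLC43A3, a nucleobase carrier. The data were RNA-seq counts from 6 cultures of PC3 cells, a human prostate cancer line that came from a metastasis in bone, grown in RPMI1640 with heat-inactivated fetal bovine serum. Of these cultures, 3 received a non-targeting siRNA (si-Control) and 3 an siRNA against CITED2 (si-CITED2), each at 80 nM for 72 h. The study used CITED2 depletion in these cells to ask which genes depend on CITED2, a transcriptional co-regulator, in connection with metastasis. Each arm is 1 siRNA in 1 cell line, so an effect of the CITED2 siRNA other than on CITED2 cannot be told apart from one through CITED2. The study's legend states that the experiments were repeated independently, and the p-values below measure the spread between these cultures.

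The targeted gene was read first. CITED2 had 858.6, 892.0 and 773.0 normalized counts in si-Control replicates 1 to 3, and 1084.3, 921.1 and 983.9 in si-CITED2 replicates 1 to 3. A normalized count here is a count rescaled so that all libraries have the same effective size, as edgeR's TMM method sets it. All 3 libraries labelled si-CITED2 were above all 3 si-Control libraries, with a log2 fold change of 0.24 (SE 0.07, adjusted p = 0.0363). Here and below, SE is a standard error, and an adjusted p is the Benjamini-Hochberg value over all genes tested in edgeR's quasi-likelihood fit, with genes under 0.05 called. The call was lost with library size alone (adjusted p = 0.0518) and without si-Control replicate 1 or 3 or si-CITED2 replicate 1 or 3 (log2 fold change 0.17 to 0.25). The mRNA of the targeted gene therefore went against the label. The study checked the knockdown on the protein by immunoblot, which is not among the data analysed here, and every direction given below is between libraries as they are labelled. Total counts ranged from 19508925 to 28936374 per library, at which 3 counts are between 0.104 and 0.154 CPM. CPM is a count scaled by library size. For this limit the library total was used, and for the CPM values given below the effective size set by TMM. The 6 PC3 and epithelial markers were all detected, and of the androgen-responsive luminal prostate markers KLK2 and FOLH1 were at 0 in all 6 libraries. Together the PC3 and epithelial markers (KRT8, KRT18, KRT19, EPCAM, VIM and CD44) summed to 3085 to 3297 CPM in si-Control. In the libraries labelled si-CITED2 they summed to 3687 to 3947 CPM. VIM was the most counted of them, at a mean of 1398 CPM. KRT8, KRT18, VIM and CD44 were called higher, EPCAM was called lower and KRT19 was not called. The sum mixes VIM and CD44 with keratins and EPCAM, so it is not a measure of epithelial state. Fibroblast markers summed to 5.62 to 5.94 CPM and 6.75 to 7.77 CPM, ranges that did not overlap. Only 1 of these 7 markers, COL1A1, was counted highly enough to be tested. It was not called (log2 fold change 0.325, adjusted p = 0.105, edgeR), and the test says nothing about the others. Leukocyte and erythroid markers summed to 136.8 to 146.8 CPM and 129.5 to 153.5 CPM, nearly all of it CD68, with HBA1, HBA2 and HBB called higher in the libraries labelled si-CITED2 and PTPRC at 2 counts or fewer in every library. The part of these markers in the results below was not tested.

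Amino acids do not cross the plasma membrane unaided, and carriers divide the work. SLC7 light chains such as LAT1 and xCT reach the cell surface only when joined to a heavy chain of the SLC3 family. They work as exchangers. Many SLC38 and SLC6 carriers and the glutamate carriers of SLC1 use the sodium gradient to load the cell with amino acids that exchangers trade. When amino acids run short, the transcription factor ATF4 raises the transcription of many of these carriers, and amino acids inside the cell and the lysosome are in turn sensed by the kinase complex mTORC1. Prostate cancer cells are known to rely on leucine and glutamine carriers, and SLC43A1 (LAT3) was first described as a gene overexpressed in prostate cancer.

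The short stretches that follow are shown because they hold letters that match a core sequence known to be bound by ATF4 and its partners. Binding at these places was not tested. The windows ran from 250 bases before to 50 bases after each RefSeq transcription start (GRCh38.p14, another build than the hg19 named for the counts), and 44 of the 59 genes had at least 1 window. The searched letters were TGATGNAAN, on both strands, and the matching letters are in capitals. They occurred in 6 of the 66 windows of the transporter genes (9.09%), against 3.61% of all 35116 windows of the same length. By gene they were found in 6 of the 44 (13.6%), against 4.45% of all 27305 symbols with a window. The 4 of these genes that are on the list of amino acid response transporters and SLC38A1, the most abundant carrier by CPM, are printed 5′ to 3′ on the strand of the gene.
SLC3A2 (chr11:62881725-62881748, + strand): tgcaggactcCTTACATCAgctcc
SLC1A4 (chr2:64989381-64989409, + strand): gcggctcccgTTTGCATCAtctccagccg
SLC1A5 (chr19:46784893-46784921, - strand): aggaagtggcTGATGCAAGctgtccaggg
SLC7A1 (chr13:29595663-29595691, - strand): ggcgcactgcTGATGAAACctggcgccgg
SLC38A1 (chr12:46266502-46266530, - strand): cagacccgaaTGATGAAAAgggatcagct

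The match in SLC3A2 began at base 37 after the start and that in SLC7A1 at base 8, both in the transcribed part of the window, while those in SLC38A1, SLC1A4 and SLC1A5 began 4, 8 and 97 bases before the start. SLC3A2 and SLC1A5 also had windows at other starts, which did not hold these letters. SLC38A2 had a window without them, and SLC6A6 and SLC7A11 had no entry. Of the 5 genes printed, SLC3A2 was called lower below and the other 4 were not called. A second set of letters, TGACNNNGC, the core of the antioxidant response element bound by NRF2, was found on either strand in 7 of the 44 genes (15.9%), against 16.1% of all 27305 symbols with a window. SLC3A2 and SLC7A5 were among the 7.
SLC3A2 (chr11:62881652-62881680, + strand): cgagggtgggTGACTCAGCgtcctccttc
SLC7A5 (chr16:87869491-87869519, - strand): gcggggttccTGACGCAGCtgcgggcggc

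A few carriers, 4 of the 37 that could be tested, fell in the libraries labelled si-CITED2, and none passed the test as higher. They were SLC6A6 (TauT, the taurine transporter), SLC38A2 (SNAT2, a sodium-coupled importer of small neutral amino acids), SLC3A2 (4F2hc or CD98, the heavy chain of LAT1 and xCT) and SLC7A11 (xCT, which imports cystine in exchange for glutamate). Of the 59 genes, 37 passed edgeR's filter on low counts and were tested together with all other genes (16314 in total). The 4 genes lower and 0 higher at an adjusted p under 0.05 were 10.8% of the 37 tested, against 17.4% of all genes tested, and 8.09% of all genes were lower and 9.36% higher. Without si-CITED2 replicate 3 the count was 2, SLC6A6 and SLC38A2. Calls over all genes were also fewer in that fit, 897 lower and 1189 higher, against 1319 and 1527 with all libraries. DESeq2 also called 0 transporter genes higher. In edgeR 10 of the 37 had an unadjusted p under 0.05, 4 of them higher (SLC6A16, SLC38A6, SLC36A4 and SLC38A10) and the others lower. The share of all genes at that threshold was not counted. The median log2 fold change of the 37 was 0.02 and that of all genes tested was -0.001, with 20 of the 37 above 0 and 17 below. The 95% intervals of 35 of the 37 lay within a 2-fold change in either direction, and those of 24 lay within a 1.5-fold change. These are whole-culture values, in which less RNA per cell and fewer cells expressing a gene cannot be told apart.

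**Figure D1:**
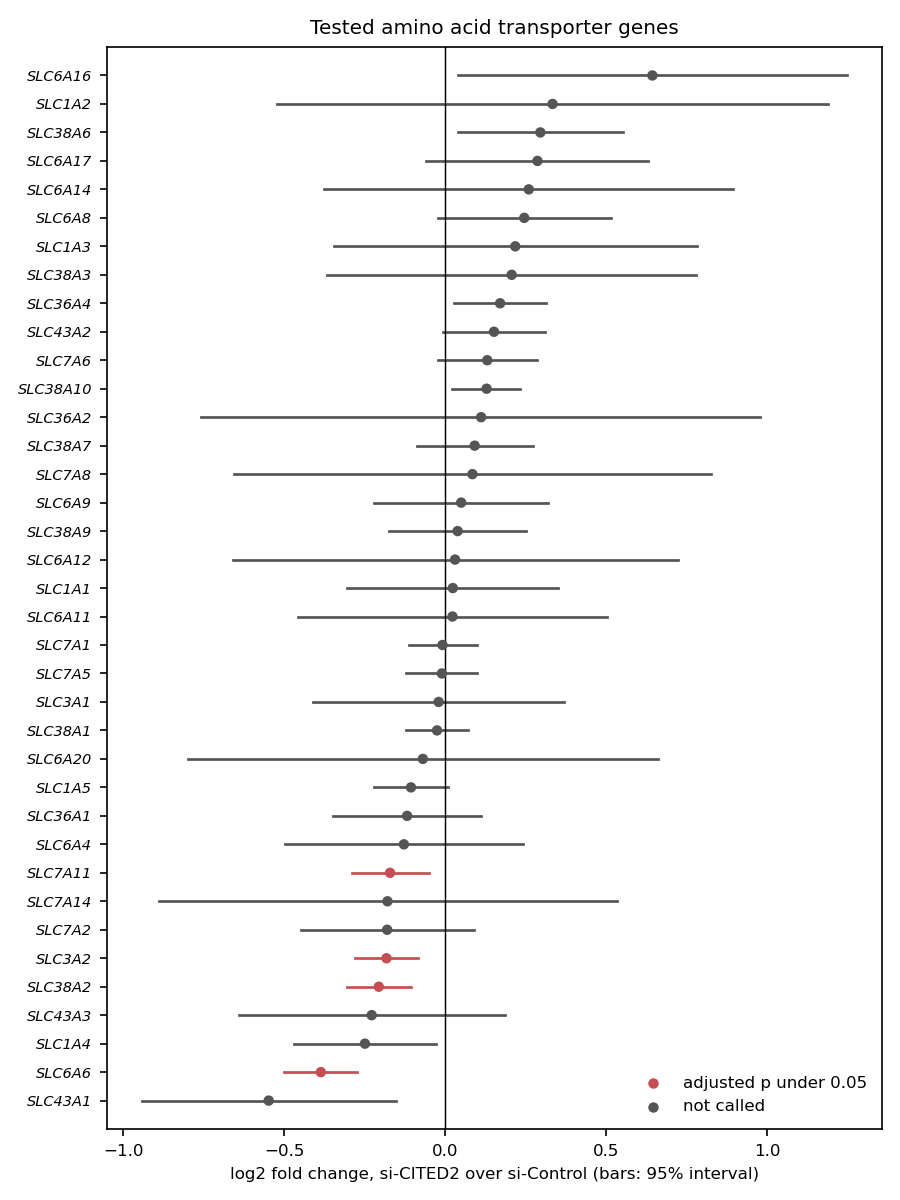
Log2 fold change (x axis, libraries labelled si-CITED2 over si-Control) of the 37 tested transporter genes (y axis), with 95% intervals as bars and genes with an adjusted p under 0.05 in red. The 4 genes in red, SLC6A6, SLC38A2, SLC3A2 and SLC7A11, are all left of 0, and the wide bars belong to genes of low count.

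The groups did not overlap for 10 of the 37 tested genes (27%), against 32.5% of all genes tested. SLC36A4, SLC38A10, SLC6A16 and SLC6A17 were higher in all 3 libraries labelled si-CITED2, and SLC1A4, SLC38A2, SLC3A2, SLC43A1, SLC6A6 and SLC7A11 were lower in all 3. Precision depended on the level. The median SE of the log2 fold change was 0.06 for the 17 genes with a mean of at least 10 CPM and 0.25 for the others. All 4 called genes were among the 17 (23.5%), and 23.6% of all genes at or above that level were called.

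Beginning with the heavy chains, SLC3A2 was counted at 5495.3, 5359.5 and 5286.6 normalized counts in si-Control and at 4784.2, 4769.8 and 4674.9 in the libraries labelled si-CITED2. The groups were well apart and the values within each were close. The means were 5380 ± 105.9 and 4743 ± 59.37 (SD, n = 3), a log2 fold change of -0.18 (SE 0.05, adjusted p = 0.0105, edgeR). Without si-CITED2 replicate 3 the adjusted p was 0.0649. SLC3A1 (rBAT, the heavy chain of the renal cystine carrier) was far lower, at 82.68 ± 15.23 and 80.66 ± 11.23 normalized counts (SD, n = 3), and the change of -0.02 was not called. Of the SLC3A1 exons, 28.9% overlap PREPL on the opposite strand and 26.9% overlap another gene on the same strand, so its counts are uncertain.

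Of the light chains that share SLC3A2 as a partner, xCT fell and LAT1 did not pass the test. SLC7A11 stood at 1951.8, 1972.5 and 2154.4 normalized counts in si-Control and 1861.5, 1763.8 and 1770.5 in the libraries labelled si-CITED2. The groups did not overlap, although the lowest control was close to the highest library labelled si-CITED2. Its log2 fold change was -0.17 (SE 0.06, 95% interval -0.29 to -0.05, adjusted p = 0.0468, edgeR). The call was lost in 5 of 13 alternatives, without si-Control replicate 2 or 3, without si-CITED2 replicate 2 or 3, and with the replicate number as a block, with adjusted p values from 0.0756 to 0.179 in these. SLC7A11-AS1, on the opposite strand, overlaps 2.86% of the SLC7A11 exons and was at 342.3 ± 19.39 and 338.2 ± 26.58 normalized counts (SD, n = 3).

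SLC7A5 (LAT1, which brings in leucine and other large neutral amino acids) had 4024.4, 4132.5 and 3986.4 normalized counts in si-Control. In the libraries labelled si-CITED2 it had 4294.9, 3910.8 and 3860.9, so that 1 library was above and the others below all controls. The log2 fold change was -0.01 with a 95% interval from -0.12 to 0.10 (adjusted p = 0.927, edgeR), and the sign turned when single libraries were left out. Near-identical transcribed copies of LAT1 exist in the genome and may share its reads. The copy SLC7A5P2 had 210.0 ± 22.91 and 211.6 ± 9.506 normalized counts (SD, n = 3).

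SLC7A6 (y+LAT2, which exchanges arginine for glutamine with sodium) was at 1046 ± 95.76 in si-Control and 1146 ± 67.98 in the libraries labelled si-CITED2 (SD, n = 3) and was not called (log2 fold change 0.13, adjusted p = 0.253, edgeR). Of its exons, 53.0% overlap SLC7A6OS on the opposite strand, and whether counting used strand is not given in the sources used here. SLC7A8 (LAT2) was close to the lower limit at a mean of 0.803 CPM. The remaining light chains, SLC7A7, SLC7A9, SLC7A10 and SLC7A13, were too low to be tested.

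Within each library, the count of LAT1 relative to its heavy chain can be read without regard to library size. The ratio of SLC7A5 to SLC3A2 counts was 0.732, 0.771 and 0.754 in si-Control and 0.898, 0.820 and 0.826 in the libraries labelled si-CITED2. The groups did not overlap, and for 3 against 3 the smallest p of an exact permutation test is 0.1. The ratio of SLC7A11 to SLC3A2 counts was 0.355, 0.368 and 0.408 in si-Control and 0.389, 0.370 and 0.379 in the libraries labelled si-CITED2, where the groups overlapped. That of SLC7A5 to SLC7A11 was 2.062, 2.095 and 1.850 in si-Control and 2.307, 2.217 and 2.181 in the libraries labelled si-CITED2, again without overlap. These ratios were chosen after the values were seen.

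**Figure D2:**
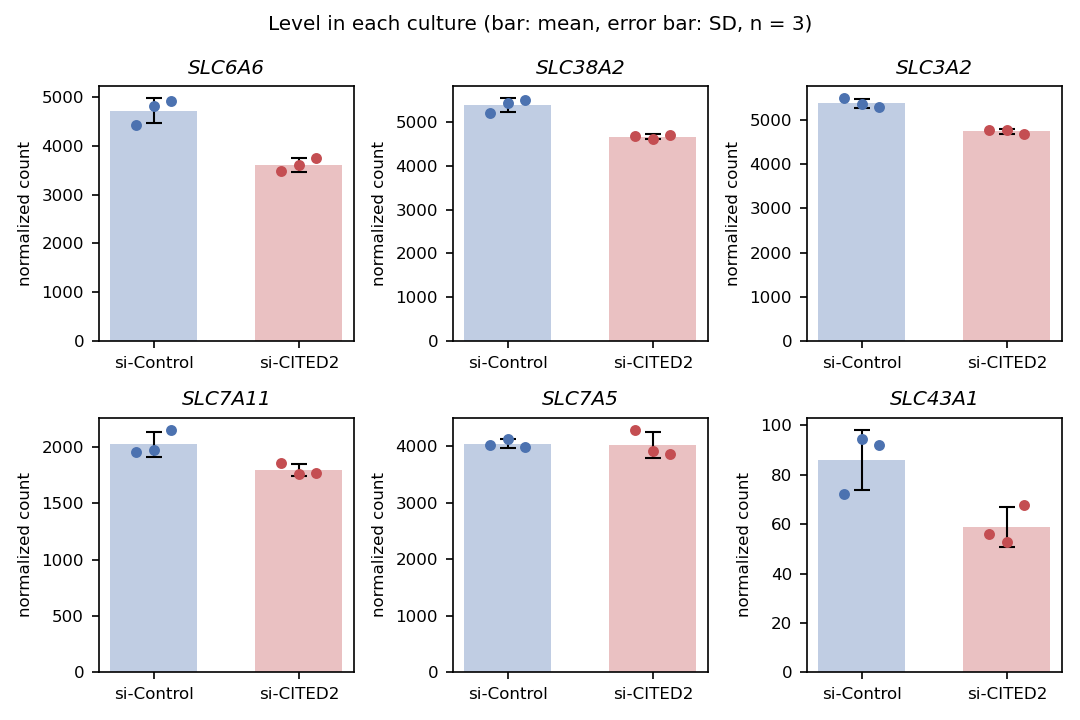
Normalized count (y axis, from 0) of 6 transporter genes in each culture, with bars for group means, error bars for the SD (n = 3) and a point for each library. SLC6A6, SLC38A2, SLC3A2, SLC7A11 and SLC43A1 show no overlap between the groups, and SLC7A5 shows overlap.

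The SLC38 family of sodium-coupled neutral carriers held 2 of the most counted transporter genes, of which SLC38A2 fell and SLC38A1 did not pass the test. SLC38A2 had 5199.3, 5440.8 and 5507.8 normalized counts in si-Control and 4677.4, 4608.3 and 4708.9 in the libraries labelled si-CITED2. Every control was above every library labelled si-CITED2, and the log2 fold change was -0.21 (SE 0.05, adjusted p = 0.00513, edgeR). The call was kept in all 13 alternatives, with log2 fold changes from -0.23 to -0.19. SLC38A1 (SNAT1), which carries similar substrates and was the most counted of all 59 genes, had 11843.8, 11843.7 and 12158.1 normalized counts in si-Control and 11994.6, 11463.9 and 11765.7 in the libraries labelled si-CITED2. Its groups overlapped, and its log2 fold change of -0.03 had a 95% interval from -0.12 to 0.07. The ratio of SLC38A2 to SLC38A1 counts was 0.439, 0.459 and 0.453 in si-Control and 0.390, 0.402 and 0.400 in the libraries labelled si-CITED2. This ratio too was chosen after the values were seen. It sets a gene called lower over one not called, so it adds no support.

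The other 5 tested SLC38 genes had log2 fold changes above 0 and did not pass the test. SLC38A10, whose groups did not overlap, was at 2394 ± 67.99 in si-Control and 2617 ± 43.15 in the libraries labelled si-CITED2 (SD, n = 3), with a log2 fold change of 0.13 (adjusted p = 0.0919, edgeR). SLC38A6 had a log2 fold change of 0.30 (SE 0.12, adjusted p = 0.111, edgeR) and overlapping groups. SLC38A7, a lysosomal glutamine carrier, and SLC38A9, the lysosomal arginine sensor, had log2 fold changes of 0.09 and 0.04. In all, 7 of the 11 SLC38 genes were tested, 1 was lower and 0 were higher.

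SLC6A6 showed the largest change among the 4 called genes. Taurine, which it takes up, is an osmolyte and is not built into proteins. It had 4429.7, 4811.2 and 4920.6 normalized counts in si-Control and 3475.2, 3604.1 and 3750.2 in the libraries labelled si-CITED2. The lowest control was well above the highest library labelled si-CITED2. Means were 4721 ± 257.8 and 3610 ± 137.6 (SD, n = 3), a 1.31-fold lower level with a log2 fold change of -0.39 (SE 0.05, 95% interval -0.50 to -0.27, adjusted p = 6.7e-05, edgeR). The call was kept in all 13 alternatives. GRIP2 on the opposite strand overlaps 3.46% of the SLC6A6 exons and had at most 65 counts in any library.

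Among the other SLC6 carriers of substrates outside the protein amino acids, none of 5 tested genes was called. SLC6A16, an orphan carrier, had 15.1, 24.2 and 28.2 normalized counts in si-Control and 34.0, 36.3 and 34.0 in the libraries labelled si-CITED2. Although the groups did not overlap, the counts were small, and the log2 fold change of 0.64 had an SE of 0.29 (adjusted p = 0.142, edgeR). SLC6A8 (creatine) had a log2 fold change of 0.25 (adjusted p = 0.217, edgeR), and its near-identical copy SLC6A10P had at most 2 counts. SLC6A4 (serotonin), SLC6A11 (GABA) and SLC6A12 (betaine and GABA) had overlapping groups at 24.74 to 76.21 normalized counts in si-Control. Of the 9 SLC6 genes for amino acids, 4 were tested and none was called. SLC6A9 (GLYT1, glycine) had 152.0 ± 13.47 and 158.0 ± 8.176 normalized counts (SD, n = 3), and SLC6A17, a vesicular carrier, had a log2 fold change of 0.29 (adjusted p = 0.268, edgeR).

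The SLC1 family splits into neutral exchangers and glutamate carriers. SLC1A5 (ASCT2, the main glutamine exchanger of many cancer cells) was at 3038 ± 125.7 in si-Control and 2825 ± 140.4 in the libraries labelled si-CITED2 (SD, n = 3), with overlapping groups and a log2 fold change of -0.11 (adjusted p = 0.21, edgeR). An antisense gene overlaps 23.4% of its exons. SLC1A4 (ASCT1, which exchanges alanine, serine and cysteine) had 340.4, 312.4 and 296.5 normalized counts in si-Control and 258.6, 247.5 and 294.7 in the libraries labelled si-CITED2. The groups came close without overlapping, and the log2 fold change of -0.25 did not pass the test (adjusted p = 0.119, edgeR). The glutamate carriers were low. SLC1A1 (EAAT3) was at 108.3 ± 15.25 and 110.5 ± 11.18 normalized counts (SD, n = 3), SLC1A3 had a log2 fold change of 0.22, and SLC1A2 was at 0.47 CPM.

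For the cationic carriers, SLC7A1 (CAT1, arginine and lysine) had 3084 ± 16.17 in si-Control and 3069 ± 129.5 in the libraries labelled si-CITED2 (SD, n = 3). Its log2 fold change was -0.01 with a 95% interval from -0.11 to 0.10. SLC7A2 (CAT2) and SLC7A14, which is lysosomal, had log2 fold changes of -0.18 and -0.18 and were not called.

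The proton-coupled SLC36 genes and the SLC43 genes had no called gene. SLC36A4 (PAT4) was at 763.1 ± 20.16 in si-Control and 860.4 ± 55.13 in the libraries labelled si-CITED2 (SD, n = 3), without overlap (log2 fold change 0.17, adjusted p = 0.0964, edgeR), and SLC36A1 (PAT1, lysosomal) had a log2 fold change of -0.12. SLC43A1 (LAT3) had 72.0, 94.2 and 91.8 normalized counts in si-Control and 55.9, 52.6 and 67.9 in the libraries labelled si-CITED2. The groups did not overlap, and the log2 fold change of -0.55 (SE 0.19) was the most negative of the 37. Its adjusted p of 0.0529 (edgeR) lay just above the threshold, and it was called with library size alone, without a filter on low counts and without si-Control replicate 1. SLC43A2 (LAT4) had a log2 fold change of 0.15 (adjusted p = 0.191, edgeR). SLC43A1, SLC6A16, SLC1A4 and SLC38A1, and the untested SLC7A7 and SLC7A9 below, were given by library after their values were seen.

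Between genes, levels were compared as CPM per kilobase of exons (GENCODE 29 lengths, found for 59 of 59 genes). SLC3A2 was highest at 81.0 CPM per kilobase, with libraries from 74.8 to 87.9. It was followed by SLC38A1 at 53.9 (52.2 to 55.3) and SLC38A2 at 42.6 (39.1 to 46.7), and these 3 ranges did not overlap. SLC1A5 and SLC7A5 came next, at 37.4 each, with ranges that overlapped one another, and those of SLC1A5 (34.7 to 40.5) and SLC7A5 (35.7 to 39.8) also overlapped that of SLC38A2. SLC6A6 was at 25.6 (21.4 to 30.3) and overlapped SLC38A10 at 23.1 (21.4 to 24.5), in an order that was SLC6A6 first in si-Control (29.04 against 22.11) and SLC38A10 first in the libraries labelled si-CITED2 (24.17 against 22.2). SLC7A1 at 17.8 and SLC7A11 at 8.42 followed.

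**Figure D3:**
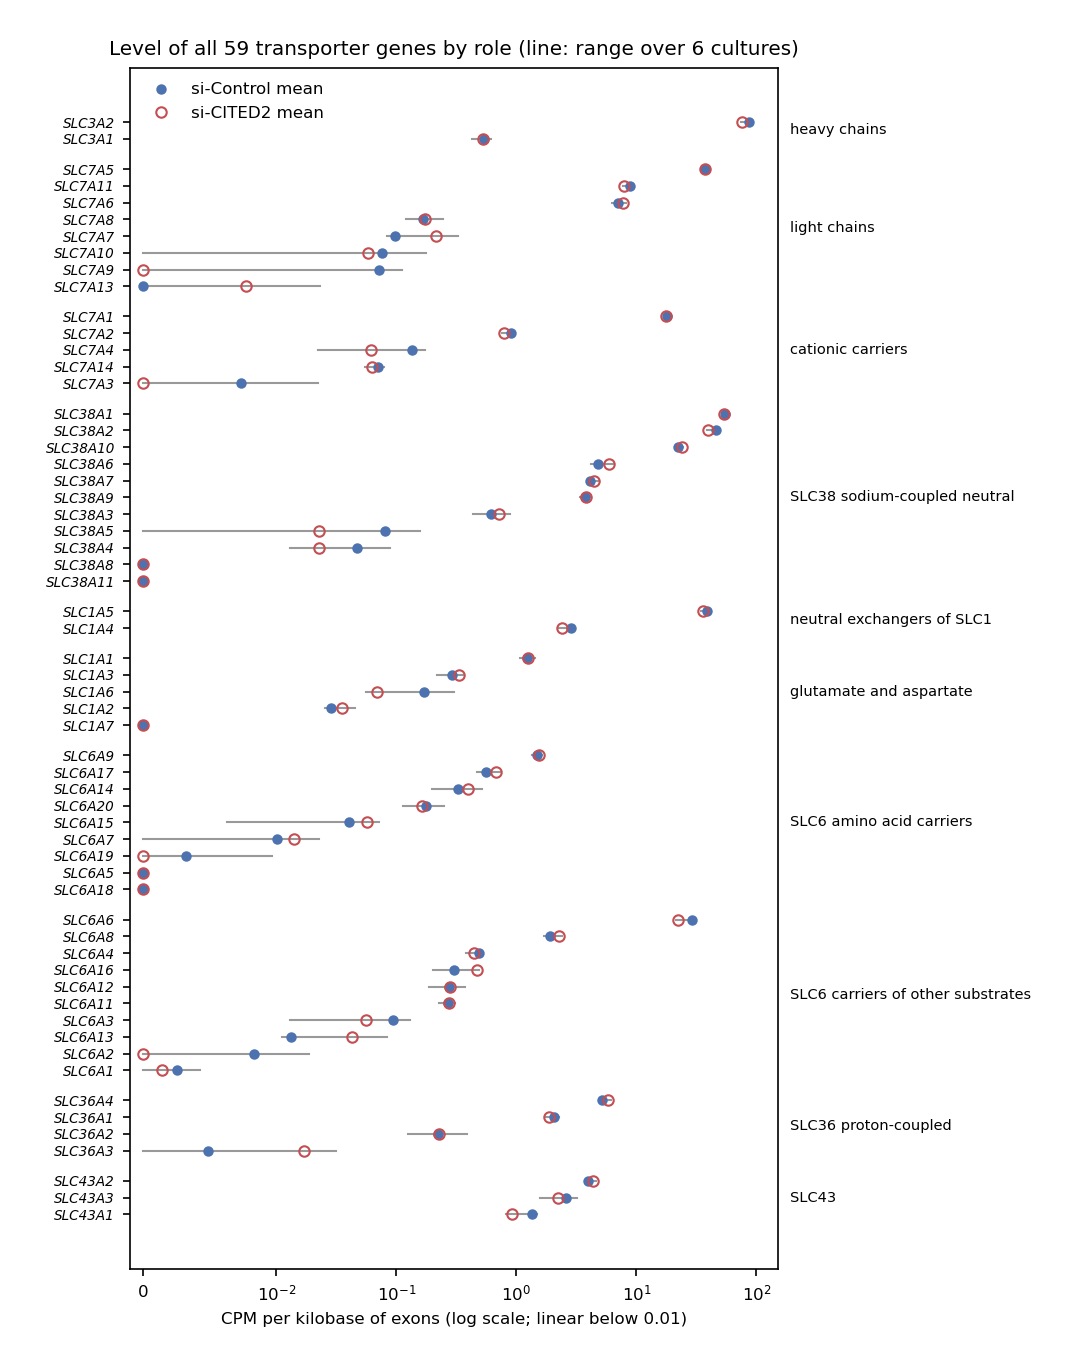
Level of each of the 59 transporter genes in CPM per kilobase of exons (x axis, log scale, linear below 0.01), grouped by role, with filled points for the si-Control mean, open points for the mean of the libraries labelled si-CITED2 and a line for the range over the 6 libraries. Levels run from SLC3A2, with a mean of 81.0 over the 6 libraries, down to 5 genes with no count.

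The transporter genes together took 1997, 2033 and 2054 CPM in si-Control and 1962, 1884 and 1903 CPM in the libraries labelled si-CITED2. The groups did not overlap. The 55 genes other than the called ones summed to 1272 to 1296 CPM and 1257 to 1333 CPM. Since the 4 were set aside because they were called lower, this sum is a description and shows nothing about the rest. The 4 called genes held between 32.0% and 36.9% of the summed CPM in each library, and SLC38A1, SLC3A2, SLC38A2, SLC6A6, SLC7A5 and SLC7A1 together held between 70.2% and 72.5%.

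Of the 22 genes that were not tested, 5 had no count in any library (SLC1A7, SLC38A8, SLC38A11, SLC6A5 and SLC6A18). A count of 0 allows up to 3 counts, a limit that covers counting error only. The other 17 had at least 1 count, and the largest count of any was 37, for SLC1A6 in si-Control replicate 1. SLC7A9, the light chain of SLC3A1, had 3.6, 0.8 and 4.7 normalized counts in si-Control and 0 in all 3 libraries labelled si-CITED2. SLC7A7 had 5.3, 7.2 and 5.9 in si-Control and 9.7, 10.5 and 20.8 in the libraries labelled si-CITED2. These levels were too low for a statement about a difference.

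Genes that work with the carriers were counted in lists chosen with earlier results of these data known, and their counts stand beside 17.4% of all genes called and 23.6% of those with a mean of at least 10 CPM. At or above that level were 7 of the 8 tested genes of the response transporter list below (42.9% of them called), 18 of 20 other response genes (38.9%), 24 of 25 enzymes (45.8%), all 20 synthetases (15%), 8 of 17 other carriers (50%) and 26 of 29 sensing genes (11.5%). Among 9 carriers known to be driven by the amino acid response, 8 were tested, and 3 were lower (SLC3A2, SLC7A11 and SLC38A2) with 0 higher. Their median log2 fold change was -0.14. Without si-CITED2 replicate 3, 1 of them was lower. Of 20 other amino acid response genes, all tested, 4 were lower and 3 higher, with a median of -0.07. ATF4 mRNA itself, which is regulated mainly through its translation, had a log2 fold change of -0.03 (SE 0.06, adjusted p = 0.769, edgeR). STC2, a secreted glycoprotein, fell from 2028 to 1278 normalized counts (log2 fold change -0.67, adjusted p = 5.79e-07, edgeR), and TRIB3, a pseudokinase that restrains ATF4, fell by 0.30 on the log2 scale. CEBPB and DDIT4, which respond to several other stresses too, rose by 0.33 and 0.29 on that scale. The list therefore held called genes in both directions.

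Genes of amino acid metabolism had the most called members of the lists. Of 26 enzymes that make or use the carried amino acids, 25 were tested, 11 were lower and 1 was higher (48.0% called), with a median log2 fold change of -0.15. PRODH, which starts proline breakdown in mitochondria, fell from 333.9 ± 19.83 to 154.9 ± 5.913 normalized counts (SD, n = 3; log2 fold change -1.11, SE 0.11, adjusted p = 1.14e-06, edgeR), and a near-identical pseudogene copy makes its count uncertain. GLS2, a glutaminase, fell from 196.3 to 120.9 normalized counts (log2 fold change -0.70, adjusted p = 0.00132, edgeR). OAT, which links ornithine to glutamate, was the gene that rose (log2 fold change 0.17, adjusted p = 0.0457, edgeR) and lost the call in 9 of the 13 alternatives. GCLC, which makes the glutathione precursor from the cysteine that xCT supplies, fell by 0.27 on the log2 scale and was picked out after its value was seen. PHGDH and PSAT1, of the serine pathway, fell by 0.20 and 0.21 on that scale and are on the response list too.

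The remaining lists had fewer called genes by number. By share at a mean of at least 10 CPM, carriers from other families stood at 50% (4 of 8), against 45.8% for the enzymes. Of 20 cytosolic aminoacyl-tRNA synthetases, which charge tRNAs with amino acids, 3 were lower and 0 higher, with a median log2 fold change of -0.09. They were both subunits of the phenylalanine enzyme, FARSB (log2 fold change -0.30) and FARSA (-0.18), and AARS (-0.15), and the count was 1 without si-Control replicate 3 or si-CITED2 replicate 2 or 3. Of 20 carriers from other families, 17 were tested, 3 were lower and 2 higher. SLC15A3, a lysosomal carrier of peptides and histidine, rose from 86.66 to 140.0 normalized counts (log2 fold change 0.67, adjusted p = 0.00821, edgeR), and CTNS, the lysosomal cystine exporter, rose by 0.28 on the log2 scale. SLC25A22 and SLC25A13, mitochondrial glutamate and aspartate-glutamate carriers, fell by 0.42 and 0.24 on that scale. Without si-Control replicate 1 or 3, or without si-CITED2 replicate 1, 1 of these carriers was higher, and without si-Control replicate 2 or si-CITED2 replicate 3, 1 was lower. Of 29 genes of amino acid sensing by mTORC1, 3 were lower (MLST8, SEH1L and RPTOR) and 0 higher, with a median of -0.06. That count was 1 with the replicate block, without si-Control replicate 1 or 2 and without si-CITED2 replicate 2 or 3, and without si-Control replicate 1 a gene was also higher, so that 1 was called in each direction.

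**Figure D4:**
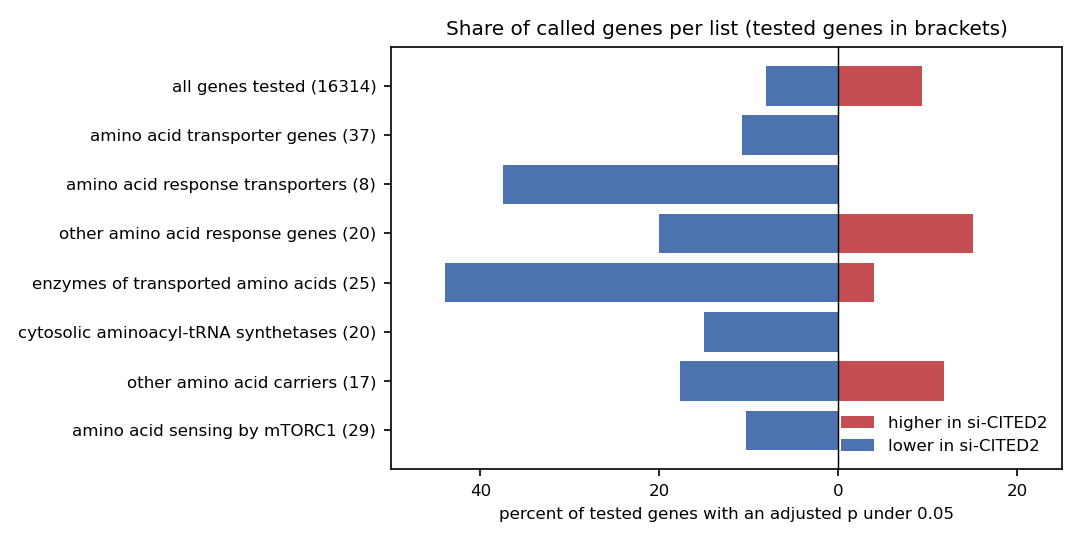
Share of tested genes called (x axis, percent; lower to the left of 0 in blue, higher to the right in red) for all genes tested, the amino acid transporter genes and the 6 related lists, with the number tested in brackets. All genes tested stand at 8.09% lower and 9.36% higher, and the transporter genes have no bar on the higher side.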

How the data were processed

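RNA was extracted with Trizol and libraries were made with a SMARTer mRNA-seq kit, per the labels. The files deposited by the authors hold raw, unnormalized counts by gene symbol for each culture, with several rows for some symbols. The submitters' processing notes name TopHat, edgeR and hg19. Versions, the counting program, its use of strand, the annotation and filters are not given in the sources used here, so reads shared by overlapping or near-identical genes may be split or lost.

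Groups came from the labels. The 25737 rows were reduced to 24462 symbols by keeping the most counted row of each. Counts were filtered with filterByExpr at default settings, normalized by TMM and tested with edgeR 4.0.16 (glmQLFit and glmQLFTest, R 4.3.3) on all 6 libraries without a block, with Benjamini-Hochberg adjustment over 16314 genes and calls at an adjusted p under 0.05. The SE was taken from the F statistic, and 95% intervals are from the same fit. The scripts were tested on simulated data. Libraries of a group differed by more than counting noise (chi-square per degree of freedom 2.80 to 7.14).

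The members and all lists were chosen with earlier results of these data known. Every tested transporter gene could be named. Values by library were set for called genes and for SLC3A2, SLC7A5 and SLC7A11, and from each other list the 2 largest called rises and falls were named. SLC43A1, SLC6A16, SLC1A4, SLC38A1, SLC7A7 and SLC7A9 were given by library outside this rule. Names outside the rule are ATF4 and the genes said in the text to be chosen after their values were seen, and AARS, RPTOR, PHGDH and PSAT1, which complete counts. Alternatives were RLE size factors, library size alone, DESeq2 1.42.0, no filter, at least 10 counts in every library, summed rows of a symbol, the replicate number as a block, and leaving out each library. Promoter windows came from RefSeq (GRCh38.p14).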

Additional observations from a re-analysis of the deposited data

How the results depend on the processing

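The count of 4 lower transporter genes was 3 to 5 in the alternatives that used all libraries. Leaving out each library in turn gave 2 (without si-CITED2 replicate 3, where SLC3A2 and SLC7A11 were lost) to 5 lower and 0 to 1 higher, the 1 being SLC43A2 without si-Control replicate 3. With the replicate block there were 3 lower and 0 higher. CITED2 mRNA had a log2 fold change of 0.24 with the block. With library size alone it was 0.22 (adjusted p = 0.0518, edgeR), and leaving out each library gave 0.17 to 0.29, with the call lost in 4 of 6. SLC7A5 turned to 0.005 without si-Control replicate 2, 0.008 without si-CITED2 replicate 2 and 0.02 without si-CITED2 replicate 3, and its lowest value was -0.061 without si-CITED2 replicate 1. The cause of these changes was not tested. Samples with the same replicate number did not deviate together (correlations -0.04, 0.05 and -0.01), so the numbers were not read as pairs. Library size alone moved the median of all genes to -0.02. With 3 libraries a group, the depth allowed tight intervals for genes of at least 10 CPM and not for the 22 untested genes.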
